A study of Homo sapiens with 9 samples.

Results

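LNCaP prostate cancer cells that carried a UGT2B28 knockdown and then an added UGT2B28 construct, here called the rescue, were compared with non-targeting control LNCaP cells. The comparison took 6 of the 9 libraries in the series, 3 titled NT for the control and 3 titled KD4OE for the rescue, chosen by their labels alone. The 3 other libraries, titled KD4, came from the knockdown without the added construct and are given for reference. All groups shared the LNCaP background, an established androgen-responsive human prostate line, and the 24 h time point. Knockdown cells were selected in puromycin at 3 µg/mL and rescue cells in G418 at 1 mg/mL, and the labels name no antibiotic for the control. The rescue libraries therefore differed from control in the knockdown, the added construct and the drug selection together, and these cannot be told apart. The series has 1 knockdown line, KD4. Whether the replicates were separate cultures is not stated, so the p-values reflect the spread among the libraries alone, part of which may be technical.

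UGT2B enzymes sit in the endoplasmic reticulum and join glucuronic acid from UDP-glucuronate to steroids and other lipophilic molecules, which makes them water-soluble and ready for export. In prostate cells UGT2B15 and UGT2B17 are the main enzymes that inactivate dihydrotestosterone and its metabolites in this way, and both are known to be repressed by androgen. UGT2B28 and UGT2B11 are close relatives of them in the same gene cluster. The question put to the data was what still differed from control once UGT2B28 RNA was high.

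Gene counts summed to 21483664 to 26004347 per control library and 20300744 to 26459528 per rescue library. Replicates correlated at r of 0.98 to 0.9839 across genes within each of the groups, and none differed from another by as little as counting noise. All 15 luminal prostate markers had counts, and their summed level was 4717 to 4903 CPM (counts normalised to library size) in control and 9909 to 10930 CPM in rescue. Most of that gain was KLK3, KLK2 and TMPRSS2, whose means went from 1428, 125 and 236 CPM to 4407, 1330 and 967 CPM. Of the 15, 10 were higher and 2 lower, the keratin KRT8 (1012 to 872 CPM) and the phosphatase ACP3 (10.02 to 6.15 CPM), named after their values were seen, and 1 lower call was left without control replicate 2, control replicate 3, rescue replicate 1 or rescue replicate 3. FOXA1 was at 279 and 266 CPM and did not pass. The 11 basal markers summed to 13.7 to 15.7 CPM in control and 17.9 to 22.7 CPM in rescue. Most of that gain was DST (3.62 to 9.35 CPM) and KRT14 (1.77 to 3.41 CPM). KRT5 was at 0.184 and 0.188 CPM, and TP63 had 0 counts in control and 1 in rescue. Of the 7 tested basal markers 2 were higher in rescue (1 without control replicate 3 or rescue replicate 3) and none lower. That is 28.6% called, beside 37.8% of all tested genes. Their median log2 fold change was −0.15, and its sign was not stable. It was 0.57 without rescue replicate 2, 0.06 without control replicate 2 and 0.14 without control replicate 3. With only the 6 control and rescue libraries in the fit it was 0.25, and in limma voom 0.46. Among 12 neuroendocrine markers CHGB, FOXA2 and NEUROD1 were at 0 counts, and the sum was 1101 to 1214 against 1155 to 1190 CPM, nearly all of it ENO2. Of 14 fibroblast, endothelial and immune markers PDGFRA, DCN, LUM, KDR, PTPRC and CD3E had no counts, and the sum was 67.9 to 77.3 against 67.8 to 79.2 CPM, nearly all of it COL1A1 (68.2 and 63.2 CPM). That sum hides 2 of the 4 tested markers that were higher in rescue. VWF, an endothelial protein, was at 2.99, 1.72 and 2.59 CPM in control and 6.81, 5.38 and 7.23 CPM in rescue (log2 difference 1.40, adjusted p = 1.6e-05). PDGFRB, a receptor of fibroblasts and pericytes, was at 0.299, 0.0464 and 0.136 CPM against 0.980, 0.602 and 0.936 CPM (2.29, adjusted p = 0.0092), a call lost without control replicate 2 (adjusted p = 0.0508), and the value was 3.12 without control replicate 1. The part of these markers in the other results was not tested. In bulk RNA of this kind, fewer cells of a type and less RNA per cell cannot be told apart.

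UGT2B28 (ENSG00000135226.17_3) was far above the control level in every rescue library. Control libraries held 25, 4 and 10 of its reads, and rescue libraries 1124, 1554 and 1857. As levels these were 0.936, 0.186 and 0.454 CPM in control and 55.1, 62.4 and 69.5 CPM in rescue. The log2 fold change was 6.81 (SE 0.32, adjusted p = 2.6e-09, edgeR quasi-likelihood test), a 112-fold difference. The rescue was thus not a return to the control level. The size of the fold rests on few control reads, and without control replicate 1 the log2 fold change was 7.58. The knockdown libraries held 17, 8 and 1 counts, and the difference from control did not pass the test (log2 fold change −0.60, adjusted p = 0.52). At this depth a loss of the target in knockdown was not detectable.

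The 3 other UGT2B genes that could be tested were all lower in rescue than in control. UGT2B11 (ENSG00000213759.9_3) was at 41.3, 50.4 and 43.8 CPM in control and at 0.098, 0.602 and 0.712 CPM in rescue, which gave −6.49 on the log2 scale (SE 0.24, adjusted p = 9.3e-18). UGT2B15 (ENSG00000196620.9_3) was at 95.3, 83.0 and 104 CPM in control and at 7.06, 7.22 and 4.94 CPM in rescue, a log2 difference of −3.88 (SE 0.14, adjusted p = 4.1e-18). UGT2B17 (ENSG00000197888.2_2) was at 123, 131 and 128 CPM in control and at 18.5, 18.7 and 13 CPM in rescue, a log2 difference of −2.93 (SE 0.12, adjusted p = 5.7e-16). No rescue library of these genes came near a control library. In knockdown their mean levels were 0.750, 14.1 and 32.6 CPM, and UGT2B15 and UGT2B17 fell further from knockdown to rescue, by 1.14 (adjusted p = 2.5e-06) and 0.96 (adjusted p = 3.8e-06) on the log2 scale. UGT2B11 did not pass that test (log2 fold change −0.57, adjusted p = 0.4). UGT2B4, UGT2B7 and UGT2B10 had too few counts to test. UGT2B10 had 17, 7 and 2 counts in control and 0, 1 and 1 in rescue. The UGT2B genes resemble each other closely, so reads could be split between them, and small counts in this family are uncertain. An unnamed gene on the other strand (ENSG00000250696) overlaps UGT2B11 and also fell, by 5.44 on the log2 scale.

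**Figure D1:**
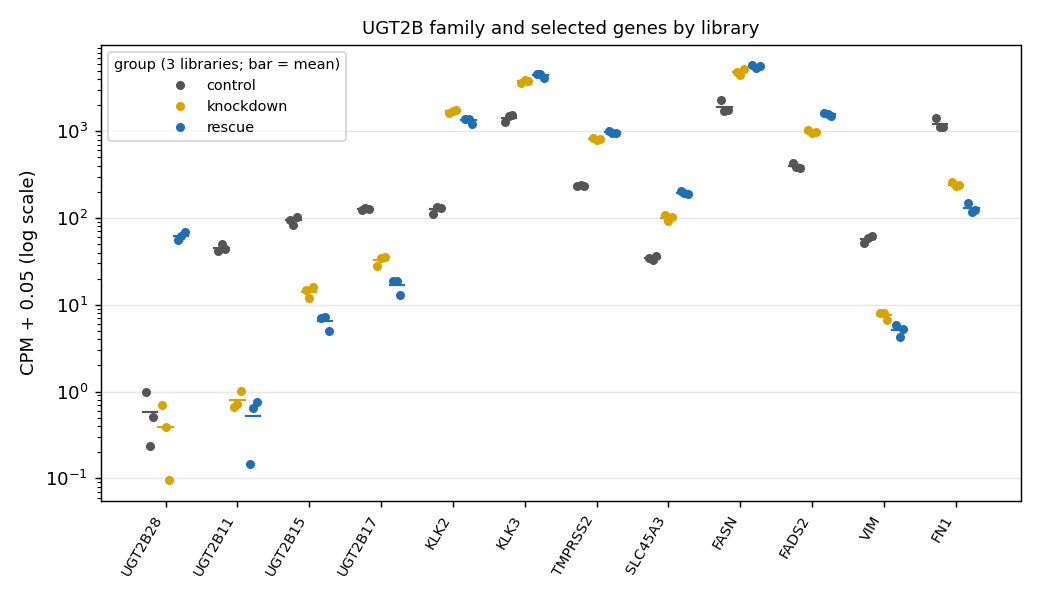
Level of the UGT2B genes and of 8 genes of the androgen, lipid and mesenchymal lists in each of the 9 libraries, in CPM plus 0.05 on a log scale, with a bar at the mean of the 3 libraries of a group. UGT2B28 is high in the 3 rescue libraries only, while UGT2B11, UGT2B15 and UGT2B17 are low in both knockdown and rescue.

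The enzymes that supply the sugar donor moved less than the transferases. UGDH, which oxidises UDP-glucose to UDP-glucuronate, was 1 of 8 tested genes of UDP-glucuronate supply and was the 1 member that fell (log2 fold change −0.23), named after its values were seen. Leaving out control replicate 2, rescue replicate 1 or rescue replicate 3 ended that call. PGM1, which makes glucose 1-phosphate, was at 87.7, 91.9 and 88.8 CPM in control and 142, 146 and 144 CPM in rescue, and rose by 0.69 (SE 0.08, adjusted p = 3.3e-08). It was not called in knockdown (log2 fold change 0.05, adjusted p = 0.69) and differed between rescue and knockdown (0.64, adjusted p = 1.2e-06). UGP2, which turns glucose 1-phosphate into UDP-glucose, rose by 0.56, and UXS1, which uses up UDP-glucuronate, rose by 0.53. In all, 4 of the 8 rose and the median was 0.18.

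Across the transcriptome, 6946 of 18389 tested genes differed between rescue and control at an adjusted p under 0.05, or 37.8%. Of these 3492 were higher in rescue (19.0% of tested genes) and 3454 lower (18.8%), so the directions were nearly balanced, and the median log2 fold change of all tested genes was −0.0025. Most differences were small. The median absolute log2 fold change of the called genes was 0.58, and 1723 genes (9.37%) differed at least 2-fold, 918 higher and 805 lower. Large rises outnumbered large falls. At 8-fold or more there were 181 higher and 109 lower genes, and at 64-fold or more 45 and 13. The rescue and control libraries did not overlap for 8851 genes (48.1%), of which 6649 were also called. Protein-coding genes were called in 44.3% of cases, long intergenic noncoding RNAs in 24.4% (147 higher, 77 lower) and processed pseudogenes in 10.1%. Among genes of at least 10 mean CPM the share was 49.3%. For reference, 5899 genes (32.1%) differed between knockdown and control. That comparison uses the same control libraries, so agreement between the pair is not independent, and single values are set side by side with no overlap given.

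**Figure D2:**
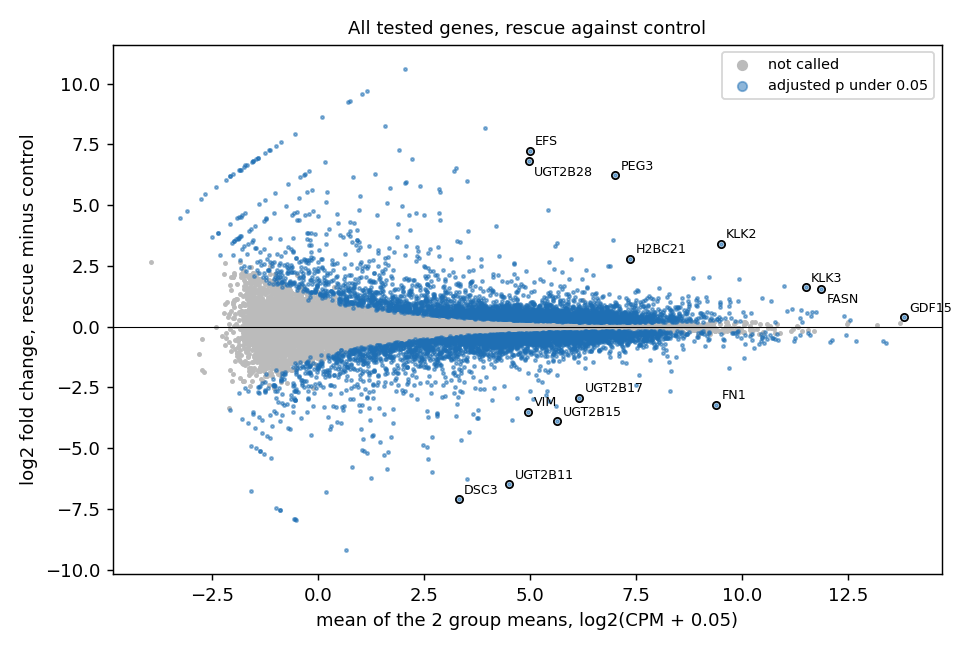
Log2 fold change of rescue over control for each of 18389 tested genes, against the mean of the group means in CPM on a log2 scale, with called genes in blue. The called genes spread to both sides, 3492 higher and 3454 lower, and UGT2B28 lies among the most raised.

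Among genes that reached at least 5 CPM, the most raised in rescue were close to silent in control. CXCL12, a chemokine that attracts cells bearing CXCR4, had 0 counts over the control libraries and 145, 200 and 254 in rescue, at least 193-fold higher taking 3 counts per group as the floor. PHGR1, a small epithelial protein, had 1 count in control and 420 in rescue, a ratio of 405 (95% counting interval 72.3 to 16040). TCEA3, a transcription elongation factor, was at 0.225, 0 and 0.0454 CPM in control and 26.7, 31.1 and 33.7 CPM in rescue (log2 fold change 8.19). That fold leans on control replicate 1, without which it was 10.08. EFS, an adaptor of the Cas family at focal adhesions, was at 0.374, 0.325 and 0.545 CPM against 67.5, 59.1 and 63.3 CPM (7.24, SE 0.16, adjusted p = 2.2e-23). Both were also high in knockdown, where TCEA3 was at 22.4 to 28.3 CPM and EFS at 47.9 to 50.5 CPM.

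PEG3, an imprinted zinc finger gene, gave the highest rescue level of this set. It was at 3.63, 4.27 and 2.23 CPM in control and 271, 251 and 240 CPM in rescue, a log2 difference of 6.23 (SE 0.15, adjusted p = 1.8e-16). Knockdown lay between, at 46.0, 37.0 and 48.6 CPM, and rescue exceeded knockdown by 2.54 (adjusted p = 8.2e-11). The transcription factors SALL2 and FEV rose by 6.52 and 6.39 and also exceeded knockdown, by 1.62 (adjusted p = 2.5e-05) and 1.55 (adjusted p = 3.7e-07). SPATA18, a p53 target that acts in mitochondrial quality control, rose by 6.90, and TSPOAP1, a scaffold protein, by 5.77. FUCA2, a secreted fucosidase, went the other way between the modified lines. It was at 0.278 to 0.454 CPM in control, 39.2 to 45.7 CPM in knockdown and 20.3 to 24.8 CPM in rescue, and fell by 0.90 from knockdown to rescue (adjusted p = 2.9e-06). EPHA6, an ephrin receptor, rose by 5.96 against control and did not pass against knockdown (−0.07, adjusted p = 0.89). Without control replicate 3 the log2 fold changes of SPATA18 and SALL2 were 8.46 and 7.74, and without control replicate 1 that of FEV was 7.0001. Gene models on the other strand overlap TCEA3, EFS, SALL2, FEV, FUCA2, EPHA6 and TSPOAP1, and ZIM2 overlaps PEG3 on the same strand, so part of their reads could belong to those models.

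Another 5 genes had no control counts and at least 1 CPM in rescue. ADAM2, a sperm surface protein of the ADAM family, had 314 rescue counts (at least 101-fold higher). CMTM8 had 291 (at least 93.6-fold), the Wnt receptor FZD2 had 239 (at least 76.9-fold), LACC1, an enzyme of innate immune cells, had 235 (at least 75.6-fold), and the glucose transporter SLC2A3 had 72 (at least 23.2-fold). ADAM2 was at 4.76, 4.13 and 4.27 CPM in rescue and at 0.610, 0.968 and 0.736 CPM in knockdown, and it exceeded knockdown (log2 fold change 2.50, adjusted p = 2.3e-05). The reverse held for LHX6 and RSPO4. LHX6, a LIM homeobox factor, had 218 control counts and none in rescue (at least 75.3-fold lower), nor any in knockdown. RSPO4, a secreted enhancer of Wnt signalling, had 93 control counts and none in rescue (at least 32.1-fold lower). Its knockdown libraries were at 0.496, 0 and 0.368 CPM.

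The most lowered genes were near silent in both modified lines. DSC3, a desmosomal cadherin, was at 20.5, 18.7 and 20.1 CPM in control and 0.294, 0 and 0.150 CPM in rescue (log2 fold change −7.09, SE 0.36, adjusted p = 3e-15), and this value was −7.90 without rescue replicate 1 and −6.50 without rescue replicate 2. FRAS1, an extracellular matrix protein of basement membranes, was at 22.8, 22.5 and 22.7 CPM against 0.147, 0.361 and 0.337 CPM (−6.26). OPRK1, the kappa opioid receptor, an androgen-repressed gene, was at 11.6, 13.5 and 12.7 CPM against 0.0980, 0.161 and 0.2996 CPM (−5.99). The integrin subunit ITGA2B fell by 5.27, and by 7.01 without rescue replicate 1. The ethylmalonyl-CoA decarboxylase ECHDC1 fell by 5.16, DNAAF11, which helps assemble ciliary dynein arms, by 4.97, and the neuronal adhesion proteins SLITRK6 and SLITRK3 by 4.87 and 4.73. TUFMP1, a pseudogene whose reads may come from its parent gene, fell by 5.87 and is uncertain. None of these differed between rescue and knockdown at an adjusted p under 0.05.

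MT1G, a zinc-binding metallothionein, fell beyond the knockdown level. It was at 9.55, 10.9 and 16.1 CPM in control and 0.882, 0.321 and 0.412 CPM in rescue, and fell by 4.54 against control (SE 0.33, adjusted p = 2.4e-11) and by 1.78 against knockdown (adjusted p = 0.0019). It stood apart in its list of metallothioneins and zinc transporters, in which 10 of 18 tested genes rose, 3 fell and the median was 0.45. SLC30A4, a zinc exporter, rose by 0.88 and exceeded knockdown by 0.64 (adjusted p = 3.2e-06), and the zinc importers SLC39A6 and SLC39A8 rose by 0.71 and 0.88. The zinc exporters SLC30A5 and SLC30A7, named after their values were seen, fell by 0.27 and 0.30, and without control replicate 2 the list had 1 called fall in place of 3.

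**Figure D3:**
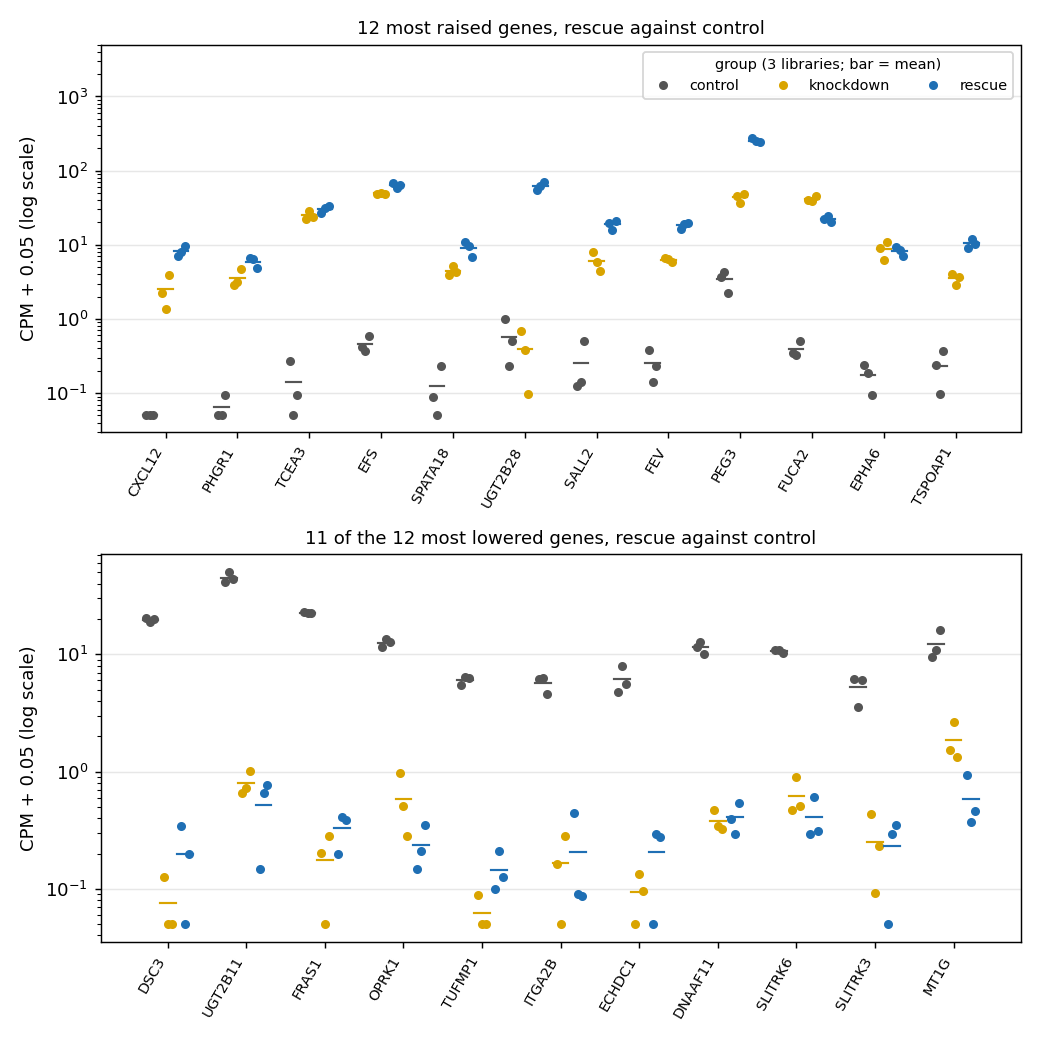
The 12 most raised and 11 of the 12 most lowered genes in each of the 9 libraries, in CPM plus 0.05 on a log scale, with a bar at the mean of a group. Control and rescue do not overlap for any gene shown, which the choice of genes required, and knockdown lies nearer to rescue than to control for all but UGT2B28.

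By number of transcripts gained or lost, abundant genes led. GDF15, a stress-induced cytokine and the most abundant of them, was at 12230, 12710 and 12870 CPM in control and 15310, 17250 and 16750 CPM in rescue (log2 fold change 0.38, SE 0.09, adjusted p = 0.0012). The fatty acid synthase FASN, the serine protease KLK3 (prostate-specific antigen), the kinase MKNK2 and the glycolytic enzyme GPI followed, with log2 fold changes of 1.55, 1.63, 1.68 and 0.43. MKNK2, which phosphorylates the translation factor eIF4E, was at 976, 979 and 980 CPM in control and 3228, 3123 and 3048 CPM in rescue. The largest losses were the mitochondrial ribosomal RNA MT-RNR2, with 14450, 12390 and 13070 CPM in control and 7997, 7901 and 9319 CPM in rescue (−0.66), and MT-CO1 and MT-ND4 (−0.58 and −0.53). FTH1, the ferritin heavy chain, fell by 0.61 (SE 0.09, adjusted p = 1.6e-06). BEST1 overlaps FTH1 on the other strand and fell by 0.64, and reads of this pair cannot be separated. EEF2, the translation elongation factor, fell by 0.33. FTH1 and EEF2 did not pass in knockdown against control (adjusted p = 0.6 and 0.55), and rescue was below knockdown for both (adjusted p = 6.7e-05 and 0.037).

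Androgen-induced genes were higher in rescue. Androgen switches on kallikreins, transporters and lipid enzymes in luminal cells, and of 39 tested genes of this kind 29 rose and 4 fell, with a median log2 fold change of 0.65 against −0.0025 over all tested genes. KLK2, a secreted serine protease next to KLK3, was at 111, 133 and 132 CPM in control and 1396, 1378 and 1216 CPM in rescue, a log2 difference of 3.41 (SE 0.09, adjusted p = 1.2e-21). KLK3 was at 1266, 1496 and 1520 CPM against 4582, 4559 and 4081 CPM (1.63, SE 0.09, adjusted p = 5.8e-15). The membrane transporter SLC45A3 rose from 34.9, 33.1 and 36.4 CPM to 204, 195 and 187 CPM (2.49), and the protease TMPRSS2 from 236, 237 and 235 CPM to 1006, 952 and 944 CPM (2.04). In all of these the lowest rescue library lay above the highest control library. FKBP5, a co-chaperone of steroid receptors named after its values were seen, rose by 2.39.

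In knockdown 25 of the 39 were higher and 2 lower, with a median of 0.54. Rescue and knockdown were tested against each other for single genes. SLC45A3 was higher in rescue than in knockdown by 0.96 (adjusted p = 6.8e-10), at 108, 91.1 and 101 CPM in knockdown. KLK2 was lower in rescue than in knockdown by 0.35 (adjusted p = 0.0047), and KLK3 did not pass (0.23, adjusted p = 0.081). The 4 members that fell against control were ADAMTS1, an extracellular protease (−2.39, adjusted p = 7e-19), LIFR, the receptor of leukemia inhibitory factor (−0.97), ELL2, an elongation factor (−0.29), and KRT8, a luminal keratin (−0.21). The last 3 were named after their values were seen. The calls of ELL2 and KRT8 were lost on leaving out control replicate 2, control replicate 3 or rescue replicate 1, KRT8 also without rescue replicate 3, and ELL2 also without rescue replicate 2 and under other scalings (adjusted p = 0.0505 and 0.0521).

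Androgen-repressed genes were lower. Of 10 tested, 6 fell and 1 rose, with a median of −2.09, but 3 of the 6 were UGT2B genes, which resemble each other, and the list was written with earlier results of these data known. The others were OPRK1, the scavenging chemokine receptor ACKR3, which also binds CXCL12, and SESN3, a sestrin. ACKR3 was at 54.7, 58.9 and 64.9 CPM in control and 9.12, 8.31 and 5.47 CPM in rescue, and fell by 2.97 (SE 0.21, adjusted p = 4.5e-08). SESN3 fell by 0.25 with overlapping libraries, a call lost without control replicate 3, rescue replicate 2 or rescue replicate 3. DDC, which makes dopamine from its precursor, rose by 0.77. ACKR3, SESN3 and DDC were named after their values were seen.

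The promoters of KLK3 and KLK2, which rose, and of UGT2B15 and UGT2B11, which fell, are shown because both kinds of gene are known to respond to androgen. Each run is the 250 bases before the annotated start from RefSeq (GRCh38.p14), read 5′ to 3′ on the gene's own strand, with capitals marking the androgen half-site AGAACA on either strand. The windows are chr19:50854665-50854914 for KLK3 and chr19:50873189-50873438 for KLK2 on the plus strand, and chr4:68670653-68670902 for UGT2B15 and chr4:69214749-69214998 for UGT2B11 on the minus strand.
KLK3: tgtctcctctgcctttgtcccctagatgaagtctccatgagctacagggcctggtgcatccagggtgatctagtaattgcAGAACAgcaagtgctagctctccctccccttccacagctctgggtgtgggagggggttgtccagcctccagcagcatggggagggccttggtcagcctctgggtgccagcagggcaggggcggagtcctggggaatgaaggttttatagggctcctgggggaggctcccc
KLK2: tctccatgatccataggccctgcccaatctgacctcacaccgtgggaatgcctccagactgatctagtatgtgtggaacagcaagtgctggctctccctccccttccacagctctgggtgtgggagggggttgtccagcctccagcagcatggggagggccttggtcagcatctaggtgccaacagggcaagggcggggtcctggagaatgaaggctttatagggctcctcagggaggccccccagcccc
UGT2B15: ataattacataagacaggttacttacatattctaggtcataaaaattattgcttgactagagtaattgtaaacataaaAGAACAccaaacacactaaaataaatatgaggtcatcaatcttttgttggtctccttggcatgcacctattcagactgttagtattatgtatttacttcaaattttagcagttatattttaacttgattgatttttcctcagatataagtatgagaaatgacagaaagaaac
UGT2B11: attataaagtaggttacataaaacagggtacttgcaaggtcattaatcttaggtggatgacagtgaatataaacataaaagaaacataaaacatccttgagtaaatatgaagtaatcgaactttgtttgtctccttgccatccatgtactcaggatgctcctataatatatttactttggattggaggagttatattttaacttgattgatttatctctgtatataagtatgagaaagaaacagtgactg
The KLK3 window holds a half-site whose first base lies 170 bases before the start, and the UGT2B15 window holds a half-site 172 bases before it. KLK2 and UGT2B11 have no exact copy in this window, and near matches were not counted. KLK2 reads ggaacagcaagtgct where KLK3 reads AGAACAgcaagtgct, so it departs from the half-site there by 1 base. The KLK3 and KLK2 windows share an identical stretch of 80 bases, and those of UGT2B15 and UGT2B11 share 25 bases. Over 35116 RefSeq promoters of this length 12.39% held the half-site, and 1 held the full androgen response element, an inverted repeat that contains the half-site. Of 27 androgen-induced genes with a window KLK3 alone had a half-site, and of 7 androgen-repressed genes UGT2B15 and PMP22 had it. These matches describe letters in a short window only.

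Of 15 tested transcription factors and cofactors of the androgen response 4 rose and 5 fell, with a median of −0.11 that turned to 0.0037 without control replicate 1. HOXB13, a prostate homeobox factor, rose by 0.75 (SE 0.07, adjusted p = 2.4e-09), SPOP, an adaptor for protein ubiquitination, by 0.68, and the ETS factor ETV1, which LNCaP cells are known to overexpress, by 0.87. ETV1 was lower in rescue than in knockdown by 0.50 (adjusted p = 0.00065). The coactivator NCOA1 fell by 0.73 (SE 0.10, adjusted p = 1e-06).

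Of 14 tested genes of androgen synthesis and interconversion, 5 rose and 3 fell, with a median of 0.39. CYP11A1, the enzyme that starts steroid synthesis from cholesterol, was at 0.449, 0.371 and 0.999 CPM in control and 6.47, 5.06 and 5.54 CPM in rescue (log2 fold change 3.23, SE 0.32, adjusted p = 3.2e-09). RDH11, a reductase of retinal, rose by 0.81, and SRD5A1, a 5-alpha reductase, by 0.48. SULT2B1, a sulfotransferase of hydroxysteroids, fell by 0.99 (SE 0.10, adjusted p = 9e-09). The others that fell, named after their values were seen, were AKR1C2, a reductase that breaks down dihydrotestosterone, with 31 control and 5 rescue counts, and the cholesterol carrier STARD3 (−0.30). The AKR1C2 call was lost when any library but rescue replicate 1 was left out, with adjusted p up to 0.14.

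Fatty acid synthesis was among the lists with the highest share of raised genes. Of 23 tested members 17 rose and 3 fell, with a median log2 fold change of 0.71. FASN was at 2279, 1695 and 1751 CPM in control and 5746, 5364 and 5638 CPM in rescue (1.55, SE 0.10, adjusted p = 3.3e-13). The desaturases FADS2 and FADS1, which act on polyunsaturated fatty acids, rose by 1.97 and 1.16, the elongase ELOVL7 by 2.57, and ACSL3, which activates fatty acids with coenzyme A, by 1.21. FADS2 was at 432, 387 and 378 CPM in control, 1032, 962 and 985 CPM in knockdown and 1633, 1585 and 1483 CPM in rescue, and rescue exceeded knockdown by 0.66 (adjusted p = 6.4e-07). ELOVL7, ACSL3 and FADS1 also exceeded knockdown, by 0.81 (adjusted p = 3.5e-06), 0.37 (adjusted p = 0.00075) and 0.37 (adjusted p = 0.00049), while FASN did not pass (0.21, adjusted p = 0.17). Gene models of FADS1 and FADS2 overlap on opposite strands. The 3 that fell, named after their values were seen, were FADS3 (−0.98), the glucose-sensing factor MLXIPL (−0.88) and ACACB, the carboxylase that restrains fatty acid oxidation (−0.43).

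Cholesterol synthesis and uptake had 15 of 24 tested genes raised, 2 lowered and a median of 0.40. MSMO1, a sterol demethylase, was at 49.6, 48.6 and 50.4 CPM in control and 118, 143 and 119 CPM in rescue (1.35, SE 0.09, adjusted p = 3.2e-13). FDFT1, which makes squalene, INSIG1, the retention factor of the sterol sensor, and IDI1, an isomerase of the mevalonate route, rose by 1.03, 1.03 and 0.97. The genes that fell, LSS (−0.57) and MVD (−0.36), also belong to the synthesis route and were named after their values were seen, and 1 of these falls was lost without rescue replicate 1 or rescue replicate 3. Among 15 peroxisomal oxidation genes 5 rose and 2 fell, with a median of −0.04 that turned to 0.02 without control replicate 3 and 0.01 without rescue replicate 1. They were called in 46.7% of cases, beside 37.8% of all tested genes and 44.3% of protein-coding genes. The list as a whole did not stand out. ACAA1, a thiolase, rose by 0.67 and SCP2, a sterol carrier, by 0.33, while ACOX3, an acyl-CoA oxidase, fell by 0.62 and AMACR, a racemase of branched fatty acids, by 1.04.

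Glycolysis genes were mostly higher, with 13 of 20 tested raised, 2 lowered and a median of 0.37. SLC16A3, which exports lactate, was at 2.77, 2.23 and 1.95 CPM in control and 8.92, 9.39 and 9.36 CPM in rescue (1.98, SE 0.20, adjusted p = 3.4e-09). ALDOC, PGAM1 and PFKP, an aldolase, a mutase and a phosphofructokinase of the pathway, rose by 0.92, 0.62 and 0.58. PFKP was not called in knockdown (0.15, adjusted p = 0.11) and was higher in rescue than in knockdown by 0.43 (adjusted p = 0.00014). Of 24 hypoxia-responsive genes 13 rose and 3 fell, with a median of 0.21. PFKFB3, which makes an activator of glycolysis, P4HA1, a collagen prolyl hydroxylase, and LOX, which crosslinks collagen, rose by 1.60, 1.16 and 1.95, and CITED2, a restraint on hypoxia-inducible factors, fell by 1.12. LOX was at 30.0, 34.6 and 28.3 CPM in control, 52.4, 48.0 and 48.1 CPM in knockdown and 128, 121 and 109 CPM in rescue, and rescue exceeded knockdown by 1.27 (adjusted p = 7.2e-11). CA9 and EGLN3, named after their values were seen, fell by 0.54 and 0.32, and without control replicate 2 the list held 1 called fall. In the citrate cycle 4 of 22 rose and 3 fell, with a median of 0.12. That is 31.8% called, beside 37.8% of all tested genes. The isocitrate dehydrogenase of the cytosol, IDH1, rose by 0.56, and those of mitochondria, IDH2 and IDH3G, fell by 0.49 and 0.50. IDH2 and IDH3G did not pass in knockdown (adjusted p = 0.1 and 0.16) and lay below knockdown in rescue (adjusted p = 0.0014 and 0.0022).

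Messenger RNA encoded by mitochondrial DNA was lower. Of its 13 genes 9 fell and none rose, with a median of −0.52, and the mitochondrial genes together took 5.69%, 4.64% and 4.82% of gene counts in control, 3.25%, 3.19% and 3.86% in rescue and 2.56%, 2.89% and 2.70% in knockdown. MT-ND1, a complex I subunit, fell by 0.67 (SE 0.09, adjusted p = 1.9e-06), MT-CO3, a complex IV subunit, by 0.60 and MT-ATP6, an ATP synthase subunit, by 0.57. In knockdown all 13 were lower, with a median of −0.86, and rescue was higher than knockdown for MT-ATP6 (0.47, adjusted p = 0.00032), MT-CO3 (0.35, adjusted p = 0.01) and MT-CO1 (0.37, adjusted p = 0.01), while MT-ND1 and MT-ND2 did not pass (adjusted p = 0.31 and 0.34). Of 42 tested nuclear genes of the respiratory chain 9 rose and 4 fell, with a median of 0.18. They were called in 31.0% of cases, beside 37.8% of all tested genes. The raised count was 15 without control replicate 2 and 5 without rescue replicate 2, and the lowered count 7 without control replicate 1. NDUFV2 and NDUFS1 of complex I rose by 0.55 and 0.30, and NDUFS7 and the ATP synthase subunit ATP5MC1 fell by 0.32 and 0.52. Among 23 genes of mitochondrial transcription and RNA stability 5 rose and 3 fell, or 34.8% called beside 37.8% of all tested genes. The median was 0.05 and turned to −0.01 without control replicate 1. The raised count was 3 without rescue replicate 1 or rescue replicate 2. The lowered count was 1 without control replicate 2 or rescue replicate 3. POLRMT, the mitochondrial RNA polymerase, fell by 0.45, and the RNase PNPT1 and the RNA-binding FASTKD5 rose by 0.46 and 0.51. PPARGC1A, a driver of mitochondrial gene expression, was at most at 1.08 CPM in rescue, and its rise of 2.60 was lost without rescue replicate 1 (adjusted p = 0.077).

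Ribosomal protein genes were called in 27.6% of cases, beside 37.8% over all tested genes, and the calls depended on single libraries. Of 76 tested 20 fell and 1 rose, beside 18.8% lowered over all tested genes, with a median of −0.18, against 1 lower, 7 higher and a median of 0.05 in knockdown. The lowered count was 55 without control replicate 1, 11 without control replicate 2, 12 without control replicate 3 and 13 without rescue replicate 1. Control and rescue did not overlap for 12 of the 76, beside 48.1% of all tested genes. The raised count was 0 to 3 with a library left out. These genes took 6.59%, 9.04% and 8.84% of gene counts in control and 6.81%, 7.33% and 6.68% in rescue, and control replicate 1 lay below every rescue library. RPL28, RPL12 and RPL13, proteins of the large subunit, fell by 0.57, 0.57 and 0.46. RPL28 was at 889, 908 and 942 CPM in control and 564, 642 and 646 CPM in rescue, and rescue was below knockdown by 0.54 (adjusted p = 7.8e-05).

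Replication-dependent histone genes gave the highest median of the 44 lists. Of 24 tested 21 rose and none fell, with a median log2 fold change of 2.29, and in knockdown 21 were also higher, with a median of 1.76. Together they took 0.0208% to 0.0225% of gene counts in control and 0.104% to 0.110% in rescue. H2BC21 was at 38.9, 43.9 and 42.1 CPM in control, 187, 236 and 191 CPM in knockdown and 266, 297 and 300 CPM in rescue (2.79, SE 0.09, adjusted p = 1.5e-19). H2BC5 rose by 2.34, H4C8 by 1.97 and H3C10 by 2.89. H2BC21, H2BC5 and H3C10 exceeded knockdown, by 0.49 (adjusted p = 0.00015), 0.70 (adjusted p = 9.4e-07) and 0.77 (adjusted p = 0.00012), and H4C8 did not pass (−0.09, adjusted p = 0.61). Messages of these genes normally lack a poly(A) tail and are near-identical copies of each other, and the selection step of the libraries is not given in the sources used here. The split of reads between the copies is therefore uncertain.

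Cell cycle genes moved by less. Of 28 genes of G1/S and DNA replication 14 rose and 1 fell, with a median of 0.25, but 7 rose without rescue replicate 1 and 2 fell without control replicate 3. UNG, an enzyme of DNA repair, rose by 0.43, and FEN1, a flap nuclease whose gene model overlaps FADS2 on the same strand, by 0.76. CDT1, the replication licensing factor, fell by 0.52. Of 30 G2/M genes 14 rose and none fell (1 fell without control replicate 1), with a median of 0.17. CCNB2 and CCNA2, cyclins of mitosis and S phase, rose by 0.86 and 0.82, and HMMR and NEK2, proteins of the spindle and centrosome, by 0.85 and 0.74. In knockdown 5 of the 30 were higher and 1 lower. CCNA2 was at 61.4, 77.9 and 72.9 CPM in control, 88.2, 95.6 and 95.8 CPM in knockdown and 121, 126 and 127 CPM in rescue, and rescue exceeded knockdown by 0.42 (adjusted p = 0.00077).

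**Figure D4:**
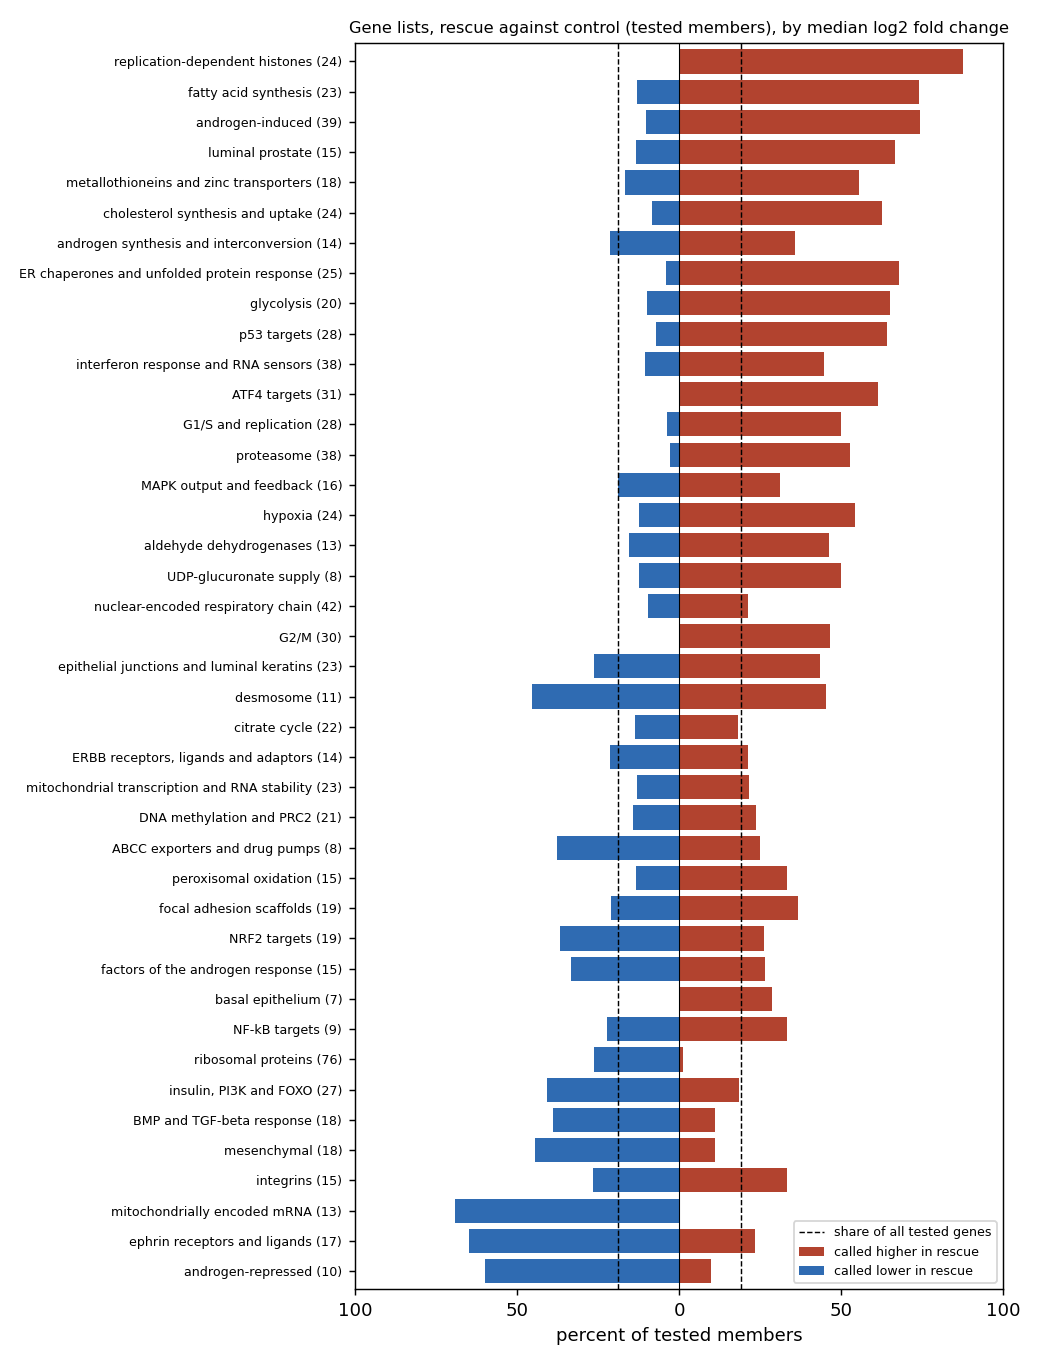
Share of tested members called higher (right) and lower (left) in rescue for gene lists with at least 7 tested members, ordered by median log2 fold change, with dashed lines at the share over all tested genes (19.0% higher, 18.8% lower). Histones, fatty acid synthesis and androgen-induced genes stand at the raised end and androgen-repressed, ephrin and mitochondrially encoded genes at the lowered end.

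Stress-response lists leaned upward. Of 31 ATF4 targets, which serve amino acid supply under stress, 19 rose and none fell, with a median of 0.33. ATF3, DDIT4 and AARS1, a stress factor, an mTOR inhibitor and a tRNA synthetase, rose by 1.02, 1.06 and 0.69. ATF3 and DDIT4 were lower in rescue than in knockdown, by 0.27 (adjusted p = 0.031) and 0.56 (adjusted p = 6.1e-05). NUPR1, a small chromatin protein, went the other way. It was at 311, 417.6 and 411 CPM in control, 379, 456 and 416 CPM in knockdown and 776, 829 and 758 CPM in rescue, a rise of 1.05 against control (SE 0.09, adjusted p = 1.7e-09) and of 0.92 against knockdown (adjusted p = 2.2e-07). Of 25 genes for chaperones and the unfolded protein response of the endoplasmic reticulum 17 rose and 1 fell (2 without rescue replicate 1, 0 without rescue replicate 2), with a median of 0.39. HSPA5, the main chaperone there, rose from 299, 309 and 325 CPM to 557, 575 and 539 CPM (0.84, SE 0.07, adjusted p = 1.5e-10), and MANF, DNAJB9 and PDIA3, which help proteins fold, rose by 1.47, 1.17 and 0.73. Of 38 proteasome genes 20 rose and 1 fell, with a median of 0.24. The assembly chaperone PSMD5 rose by 2.50 from under 1 CPM, and was higher still in knockdown, at 15.9 to 18.3 CPM against 3.14 to 4.35 CPM in rescue. The subunit genes PSMA3, PSMD1 and PSMD8 rose by 0.78, 0.69 and 0.50.

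Of 28 p53 targets 18 rose and 2 fell, with a median of 0.35. SPATA18 led, and CDKN1A, an inhibitor of the cell cycle, rose from 320, 372 and 373 CPM to 583, 660 and 667 CPM (0.84, SE 0.08, adjusted p = 1.6e-09) and exceeded knockdown by 0.50 (adjusted p = 8.6e-05). GADD45A and GADD45B, stress proteins of DNA damage, rose by 0.86 and 0.89. The genes that fell were DDB2, a damage sensor (−0.42), and FAS, a death receptor (−0.38), named after their values were seen. The FAS call was lost without control replicate 2, control replicate 3 or rescue replicate 1 (adjusted p = 0.057 to 0.16).

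Interferon-related genes were more often higher than lower. Of 38 tested 17 rose and 4 fell, with a median of 0.34. IFITM2, a membrane barrier to virus entry, was at 1.198, 1.44 and 1.36 CPM in control and 14.9, 11.1 and 12.6 CPM in rescue (3.27, SE 0.20, adjusted p = 1.6e-13), and its gene model overlaps IFITM1. HLA-B and HLA-C, class I molecules that present peptides, rose by 1.09 and 0.79 and exceeded knockdown by 0.68 (adjusted p = 1.5e-06) and 0.48 (adjusted p = 0.00015), though these genes are near-copies and reads may be split between them. STAT2, which carries the interferon signal to the nucleus, fell by 0.78 (SE 0.08, adjusted p = 1e-08). Of 9 tested NF-kB targets 3 rose and 2 fell. BIRC3, an inhibitor of cell death, and NFKBIA, the inhibitor of NF-kB, rose by 1.41 and 0.68. NFKBIE fell by 0.91, and TNFAIP3, an enzyme that ends NF-kB signalling, fell by 1.60. TNFAIP3 was at 8.83, 8.26 and 7.04 CPM in control and 1.72, 3.17 and 3.00 CPM in rescue. It did not pass in knockdown (−0.21, adjusted p = 0.47) and was lower in rescue than in knockdown by 1.39 (adjusted p = 6e-05). Of 19 NRF2 targets 5 rose and 7 fell, with a median of −0.11 that turned to 0.02 without control replicate 2. NQO1, a quinone reductase, and SLC7A11, a cystine importer, rose by 0.69 and 0.83.

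Mesenchymal genes leaned downward. Of 18 tested 8 fell and 2 rose, with a median of −0.32. VIM, the intermediate filament vimentin, was at 51.7, 58.4 and 61.5 CPM in control and 5.74, 4.21 and 5.21 CPM in rescue, a log2 difference of −3.50 (SE 0.13, adjusted p = 2.3e-18). FN1, the matrix protein fibronectin, was at 1412, 1108 and 1117 CPM against 150, 119 and 125 CPM (−3.21, SE 0.10, adjusted p = 4e-18). Both were lower in knockdown too, and fell further in rescue, by 0.58 (adjusted p = 0.0066) and 0.89 (adjusted p = 5.2e-07). ITGA5, the fibronectin receptor subunit, fell by 1.02. The members that rose were LOX and SNAI2, a repressor of epithelial genes, which was at most at 0.923 CPM in rescue and was named after its values were seen. The SNAI2 call was lost without control replicate 2, control replicate 3, rescue replicate 2 or rescue replicate 3 (adjusted p = 0.052 to 0.10).

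Epithelial junction and keratin genes moved both ways, with 10 of 23 raised, 6 lowered and a median of 0.16. Without rescue replicate 1, 3 fell. The tight junction genes CLDN3 and CLDN7 rose by 0.90 and 0.80, and ST14, a membrane protease, by 0.89. These named members all come from the raised side, and the lowest log2 fold change in the list was −0.61. In the desmosome, the rivet that joins neighbouring epithelial cells, 5 of 11 rose and 5 fell, and the cadherins moved in both directions. DSC3 was nearly lost, as given with the most lowered genes. DSC2 rose from 36.8, 32.8 and 28.3 CPM to 60.6, 62.0 and 53.7 CPM (0.85, SE 0.10, adjusted p = 7e-08). DSG2, DSG1 and DSC1, all named after their values were seen, were higher as well. DSG2 rose by 0.41, DSG1 had 0 counts in control and 30 in rescue (at least 9.65-fold higher), most of them in 1 library, and its call was lost without rescue replicate 1. DSC1 had 2 and 29 counts, a ratio of 13.99 (95% counting interval 3.54 to 121), and its call was lost in limma voom (adjusted p = 0.056). PERP and PKP4, a membrane protein and a plaque protein, fell by 0.81 and 0.68, and DSP, the anchor to keratin, by 0.70, from 1870, 1540 and 1654 CPM to 1139, 949 and 1019 CPM. With only the 6 libraries of control and rescue in the fit, 3 desmosome genes rose.

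Of 15 tested integrins 5 rose and 4 fell, with a median of −0.37. ITGB4, the hemidesmosome subunit, was at 24.0, 16.5 and 17.4 CPM in control and 7.55, 6.02 and 5.21 CPM in rescue (−1.63, SE 0.19, adjusted p = 1.1e-07), and ITGAV, a receptor subunit for vitronectin, rose by 0.69. Among 19 focal adhesion scaffolds 7 rose and 4 fell. PARVA, which links integrins to actin, was at 0.187, 0.464 and 0.409 CPM in control, 1.83, 2.15 and 1.98 CPM in knockdown and 8.53, 7.86 and 8.73 CPM in rescue. It rose by 4.58 against control (SE 0.31, adjusted p = 1.4e-12) and by 2.08 against knockdown (adjusted p = 1e-06). ZYX, an actin regulator, and NEDD9, a relative of EFS, fell by 0.78 and 1.03 and were also below knockdown, by 0.43 (adjusted p = 0.00024) and 0.62 (adjusted p = 0.0011).

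Ephrins and their receptors, which steer cell contact, gave 11 falls and 4 rises among 17 tested genes, with a median of −0.64. The ligand EFNB2 was at 56.7, 50.5 and 57.5 CPM in control and 7.99, 10.2 and 8.20 CPM in rescue (−2.64, SE 0.17, adjusted p = 1.2e-10). The receptor EPHA7 fell by 3.58, by 4.35 without rescue replicate 2, and lay below knockdown by 2.27 (adjusted p = 0.00072). EPHA2, a receptor also induced by MAPK signalling, fell by 1.08 and EPHA6 rose. Of 18 genes of the BMP and TGF-beta response 7 fell and 2 rose, with a median of −0.28. The homeobox repressor TGIF1 fell by 1.199 and was below knockdown by 0.57 (adjusted p = 4.2e-05), the co-receptor TGFBR3 fell by 0.97, the transcription inhibitor ID2 by 1.69 and LTBP1, which stores latent TGF-beta, by 1.98. The members that rose, named after their values were seen, were SMAD9, a BMP signal carrier (0.51), and the receptor TGFBR2, with 1 count in control and 63 in rescue, a ratio of 60.8 (95% counting interval 10.52 to 2438).

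Insulin, PI3K and FOXO genes also leaned downward, with 11 of 27 lowered, 5 raised and a median of −0.24. The insulin receptor INSR was at 109, 106 and 119 CPM in control and 46.2, 42.6 and 47.8 CPM in rescue (−1.29, SE 0.09, adjusted p = 2.6e-12). Its adaptor IRS2 fell by 1.25 and the mTOR restraint TSC1 by 0.83. IGFBP3, which binds insulin-like growth factors, fell by 1.79 and lay below knockdown by 1.19 (adjusted p = 3.8e-08). The receptor IGF1R, named after its values were seen, was at 25.6, 22.8 and 20.8 CPM in control and 46.7, 40.3 and 44.7 CPM in rescue and rose by 0.93. Of 16 genes of MAPK output 5 rose and 3 fell, with a median of 0.21. CCND1, the G1 cyclin, and FOS, an immediate early factor, rose by 0.79 and 1.02. EPHA2, given with the ephrin receptors, is also in this list and fell by 1.08. The lowest log2 fold change in the list was −1.68. Of 14 ERBB genes 3 rose and 3 fell, and 1 rose without control replicate 3. That is 42.9% called, beside 37.8% of all tested genes and 44.3% of protein-coding genes, so the list did not stand out. ERBB3, a receptor of neuregulins, and HIP1R and AP2A1, adaptors of endocytosis, fell by 0.34, 0.53 and 0.31. TGFA, a ligand of the EGF receptor, rose by 1.04 and exceeded knockdown by 1.18 (adjusted p = 0.013), at most at 4.08 CPM, and its call against control was lost without control replicate 3 (adjusted p = 0.062).

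The remaining lists concerned transport, aldehyde oxidation and chromatin. Of 8 exporters and drug pumps 2 rose and 3 fell. ABCC1, which exports conjugated compounds, glucuronides among them, rose by 0.63 (SE 0.08, adjusted p = 5.9e-07) and ABCC6 by 1.39, while ABCC5 fell by 0.48 and the organic anion importer SLCO4A1 by 0.82. Of 13 aldehyde dehydrogenases 6 rose and 2 fell. ALDH1A3, an androgen-induced enzyme of retinoic acid synthesis, was at 6.999, 7.38 and 6.31 CPM in control and 48.6, 39.4 and 38.7 CPM in rescue (2.61, SE 0.12, adjusted p = 2.3e-16). ALDH5A1, which breaks down a product of GABA, was at 1.65, 1.90 and 1.45 CPM in control, 5.61, 5.43 and 4.28 CPM in knockdown and 17.3, 20.5 and 18.2 CPM in rescue. It rose by 3.48 against control (SE 0.19, adjusted p = 1.3e-14) and by 1.87 against knockdown (adjusted p = 8.3e-09). Of 21 genes of DNA methylation and Polycomb complex 2 there were 5 rises and 3 falls, with a median of −0.0003. That is 38.1% called, close to the 37.8% of all tested genes, so the list did not stand out. The demethylating enzymes TET1 and TET3 rose by 0.89 and 0.43, and EZH1, a Polycomb methyltransferase, fell by 0.50. The raised count was 3 without control replicate 1, rescue replicate 1 or rescue replicate 2.

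Grouping by chromosome was done over 11619 genes with a mean of at least 5 CPM, with GENCODE gene models used for order only. Chromosome 21 was lower as a whole. Its 113 genes had a median log2 fold change of −0.41, with 71 lowered and 8 raised, and the median against the control mean was −0.371, −0.411 and −0.407 in the rescue libraries and −0.209, −0.186 and −0.145 in the knockdown libraries. All 4 runs of at least 25 neighbouring genes along it were low, from −0.371 to −0.488. Chromosome 13 was higher, with 84 of 178 genes raised, 24 lowered and a median of 0.26 against 0.06 in knockdown, and its run from PROSER1 to TPT1-AS1 reached 0.74. The 21 other chromosomes lay between −0.119 and 0.159. With 3 libraries against 3 an exact two-sided permutation test cannot give a p under 0.1, so these medians carry no test. Along chromosome 6 the first 4 runs had medians of 0.351 to 1.46. The fourth holds 11 histone genes and had a median of 0.60 without them, so its other genes were higher as well. The last 8 runs of chromosome 6, from BCKDHB to PDCD2, were all low, at −0.155 to −0.429, and in the last of them 19 of 32 genes were lowered and 2 raised. The last run of chromosome 4, from TMA16 to FRG1, stood at 0.63, with 28 of 43 genes raised. Runs of at least 0.3 or at most −0.3 were not confined to these chromosomes. On chromosome 1 all runs from MPC2 to GNPAT were raised, at 0.234 to 0.541, while the run from PLA2G2A to ELOA stood at −0.253. Chromosome 16 had 215 genes raised and 72 lowered, with a median of 0.159. Of 452 runs in all, 20 had a median of at least 0.3 and 12 of at most −0.3.

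**Figure D5:**
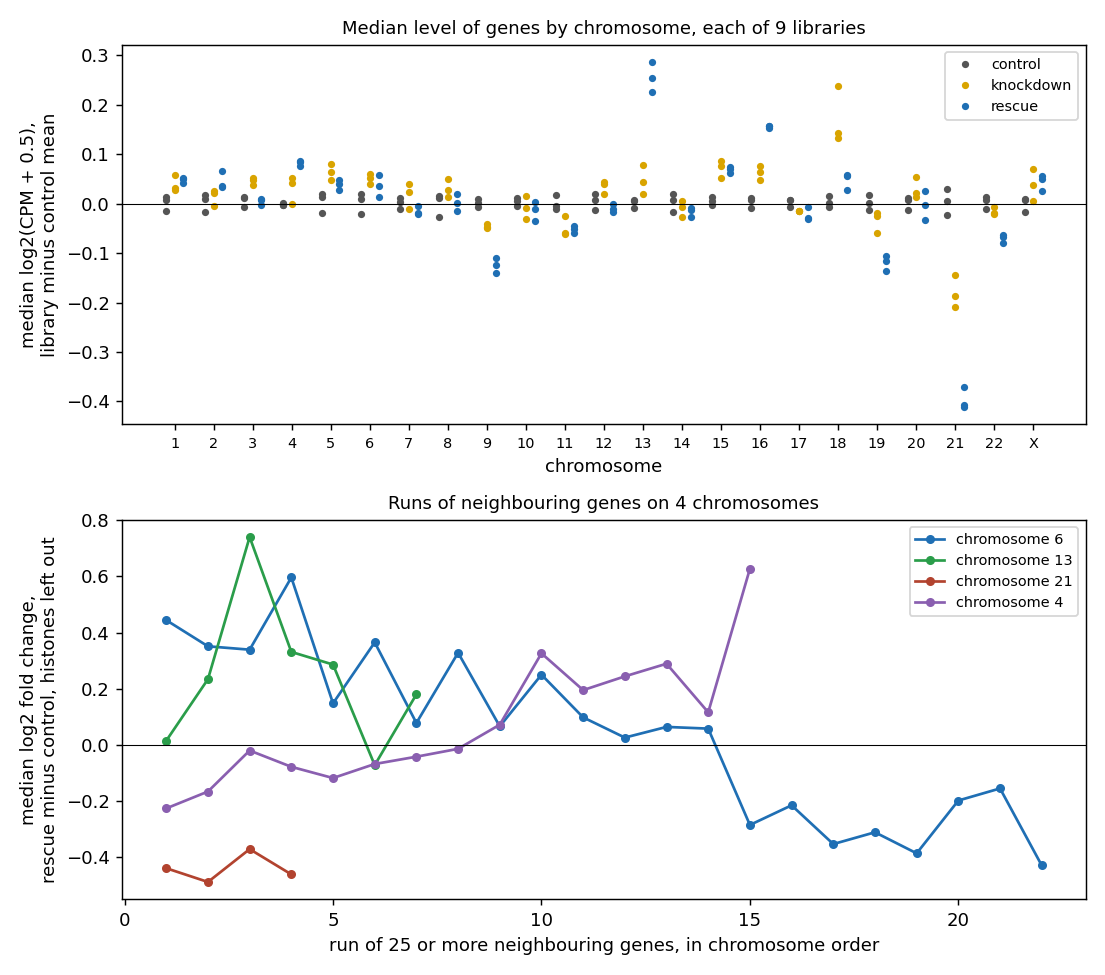
Above, the median over the genes of a chromosome of log2(CPM + 0.5) minus the control mean, 1 point per library. The 3 rescue points lie near −0.4 on chromosome 21 and above 0.2 on chromosome 13. Below, the median log2 fold change of rescue over control in runs of at least 25 neighbouring genes along 4 chromosomes, with histone genes left out.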

How the data were processed

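RNA-seq of LNCaP cells was compared between 3 control and 3 rescue libraries, with 3 knockdown libraries in the same fit. The deposited values are raw read counts, 60880 gene rows per library. The deposited read counts name, per the submitters' processing notes, the build hg19 and the tools HTSeq, HISAT2, cutadapt and FastQC. Tool versions, the RNA selection step and the strand setting: not given in the sources used here. Without the strand setting, genes that overlap on opposite strands cannot be told apart. Symbols matched for 56414 rows by a symbol table and 444 more by GENCODE, and 4022 had none. Gene counts were 40.3% to 42.92% of reads, and rows for no feature (49.29% to 50.71%), ambiguous (2.26% to 2.57%) and not unique reads (5.26% to 6.73%) were left out.

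The analysis used R 4.3.3 and edgeR 4.0.16: filterByExpr (minimum count 10), TMM, a robust quasi-likelihood fit of 3 group means to 9 libraries, which leaves 6 degrees of freedom, and Benjamini-Hochberg adjusted p under 0.05 over 18389 genes, the source of all adjusted p-values in the text unless another tool is named. Each SE was obtained by dividing the size of the log2 change by the root of its F value, and fold changes are log2 unless given as fold. Fold bounds for genes with no counts in a group use 3 counts over the group. Intervals and bounds cover counting error only. The script was tested on simulated counts. Alternatives were other scalings (RLE, upper quartile), no low-count filter, 6 libraries only, the replicate number as a block, a required fold of 1.5, DESeq2 1.42.0, limma 3.58.1 voom and leaving out each library. The members and the 44 gene lists were chosen with earlier results of these data known, so lists are described by counts and medians with no test of the list. Named genes are the UGT2B genes, the 12 called genes furthest up and the 12 furthest down with no overlap and at least 5 CPM in the higher group, the 6 largest CPM gains and losses, genes with no counts in a group and at least 1 CPM in the other, and up to 4 members per list with the smallest adjusted p. Others are said to be named after their values were seen, including the members listed as exceptions to a list. Some genes that the rule names are not reported here.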

Additional observations from a re-analysis of the deposited data

How the results depend on the processing

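The counts of 6946 called genes, 3492 higher and 3454 lower, became 1482, 780 and 702 when a fold above 1.5 was required of each gene, since most differences were small. Under 7 other settings of scaling, filter, libraries, block or tool the total was 6751 to 7363, and leaving out each library in turn gave 5809 to 6388 in all, 2915 to 3241 higher, 2894 to 3181 lower and 1630 to 1754 at 2-fold or more. The log2 fold change of UGT2B28 was 6.44 to 7.58 with a library left out, and 27 to 30 lists had a positive median. Replicate numbers did not pair the libraries (correlations of same-numbered deviations −0.0369, 0.0244 and −0.018), and with the replicate number as a block 7363 genes were called, 99.2% of the main calls among them. Of 223 named genes none reversed. A required fold of 1.5 took the call from 90 of them, and the other settings took it from 12, and SYP gained one under DESeq2 (adjusted p = 0.0443) and without control replicate 3 (adjusted p = 0.0336). KRT14 lost its call without control replicate 3 or rescue replicate 3, and PDGFRB without control replicate 2. The fit with a replicate block raised 15 respiratory chain genes in place of 9 and 7 citrate cycle genes in place of 4. Depth limits genes with few control reads, UGT2B28 among them.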
